A study of Mus musculus with 6 samples.

Results

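The genes described are the 5 subunits of the transcription factor NF-kB (Rela, Rel, Relb, Nfkb1 and Nfkb2) and 5 genes grouped here as its inhibitors (Nfkbia, Nfkbie, Nfkbiz, Tnfaip3 and Tnip1). Nfkbiz is grouped with the inhibitors as a member of the IkB family, although its product can also activate a subset of promoters. All 10 genes were chosen by name, with earlier results of these data known. Each was found among the 31017 gene symbols of the deposited count table. The RNA came from mouse mammary carcinoma cells of the line 4T1, embedded in 3D collagen I gels after nucleofection with Cas9 and guide RNAs. The 3 ETV4 KO samples had received guides against Etv4, a PEA3-type member of the ETS transcription factors, and the 3 control samples had received control guides; Cas9, nucleofection and the gel were common to both groups. The 3 ETV4 KO libraries carry 1 shared library code, and the labels say neither whether this is a single clone nor whether replicates were grown as separate cultures. The p-values therefore cover the spread among these samples alone, which may be technical.

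NF-kB proteins bind DNA as dimers. In the canonical pathway Rela or Rel pairs with p50, the product of Nfkb1, and the dimer is held in the cytoplasm by IkB proteins until the IKK kinase complex marks those IkBs for destruction. In the alternative pathway the kinase encoded by Map3k14 starts the processing of the Nfkb2 product p100 to p52, which pairs with Relb. Several of the brakes are themselves NF-kB target genes, so that in many cell types the pathway switches on its own inhibitors. In carcinoma cells NF-kB is known for driving inflammatory, survival and matrix-degrading programmes.

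Between ETV4 KO and control cells the inhibitors moved in opposite directions while most subunit mRNAs differed little. Tnip1, Nfkbie, Tnfaip3 and Nfkbiz were lower in ETV4 KO, with log2 fold changes of -0.85, -0.66, -0.61 and -0.35, and Nfkbia was higher, with 0.35. Among the subunits Rel was lower by 0.46 on the log2 scale, and the other 4 lay between -0.16 and 0.08. In the edgeR quasi-likelihood test 7 of the 10 genes were called lower and 2 higher at an adjusted p under 0.05. In this comparison 71.1% of all tested genes were called, 35.0% higher and 36.0% lower, so a call alone does not set these genes apart. The groups did not overlap for 9 of the 10 genes, nor for 72.7% of all tested genes. None of the 10 changed by 2-fold. Of the 12076 tested genes, only 467 were called higher and 727 lower by at least 2-fold, so this does not set the 10 apart. The median log2 fold change was -0.26 over the 10 genes and -0.0038 over the 12076 tested genes. Because the 10 genes were chosen with earlier results known, these medians are no test of a shift of the set. The -0.26 includes Rel and Nfkbiz. With the median of neighbouring genes taken out, a step described below, these had -0.042 and -0.063 and were not called.

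The libraries held 24356286 to 29042569 counts in ETV4 KO and 22355015 to 26669985 counts in controls, and every one of the 10 genes passed the filter on low counts with at least 348 counts in each library. Etv4 itself averaged 89.8 CPM ± 2.44 in ETV4 KO and 133.9 CPM ± 0.752 in controls (SD, n = 3 each), where CPM is counts scaled to library size with TMM factors. Its log2 fold change was -0.58, and -0.11 (edgeR adjusted p = 0.00740) once the median of its neighbours on chromosome 11, a step described below, was taken out. Summed levels of 8 mammary epithelial markers ran from 4382.1 to 4605.8 CPM in ETV4 KO and from 5702.3 to 5856.4 CPM in controls, with 1 called higher and 5 lower. The part of this shift in the results below was not tested. Marker sums of fibroblasts (13.8 to 15.5 CPM in ETV4 KO, 12.6 to 13.9 CPM in controls) and of macrophages and leukocytes (18.5 to 19.9 CPM in ETV4 KO, 16.9 to 18.4 CPM in controls) came almost wholly from Pdgfra, Postn, Cd14 and Cd68, and Lum, Thy1, Adgre1, Lyz2 and Tyrobp had 0 counts in all libraries. The 6 endothelial and 6 lymphocyte markers were each under 1 CPM, with sums of 0.121 to 0.314 CPM in ETV4 KO and 0.220 to 0.604 CPM in controls for the endothelial list, and of 0.283 to 0.594 CPM in ETV4 KO and 0.308 to 0.739 CPM in controls for the lymphocyte list. In bulk RNA fewer cells of a type and less RNA per cell cannot be told apart.

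Tnip1 encodes ABIN-1, a ubiquitin-binding partner of A20 that dampens signalling from TNF and Toll-like receptors. It had 39.4, 39.9 and 40.6 CPM in the ETV4 KO libraries and 70.8, 71.8 and 73.3 CPM in the control libraries. The groups did not overlap, and the log2 fold change was -0.85 (SE 0.043, edgeR quasi-likelihood adjusted p = 7.96e-17). Tnip1 was also the only 1 of the 10 genes whose change passed a test against 1.5-fold (edgeR glmTreat, adjusted p = 1.36e-06). Of all tested genes 13.9% passed this test. It was run without taking out the median of neighbouring genes, a step that moved Tnip1 to -0.51, as given below.

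Tnfaip3 encodes A20, a ubiquitin-editing enzyme that takes apart the signalling complexes below TNF, IL-1 and Toll-like receptors. It had 191.3, 187.9 and 186.8 CPM in ETV4 KO and 294.3, 283.4 and 283.8 CPM in controls. The groups did not overlap, and the log2 fold change was -0.61 (SE 0.032, edgeR adjusted p = 2.61e-16). The mRNAs of the A20 and ABIN-1 pair thus were both lower, and per transcript length the Tnip1 to Tnfaip3 ratio was 0.442 ± 0.012 in ETV4 KO and 0.523 ± 0.019 in controls (SD, n = 3 each).

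Of the classical IkB genes, Nfkbia and Nfkbie went opposite ways, and Nfkbib, given further below, was not called. Nfkbia encodes IkB-alpha, the inhibitor that is degraded and resynthesised fastest after a stimulus. It had 133.8, 140.5 and 129.9 CPM in ETV4 KO and 104.0, 103.9 and 109.2 CPM in controls. All ETV4 KO values lay above all control values, and the log2 fold change was 0.35 (SE 0.038, edgeR adjusted p = 1.61e-09). Nfkbie encodes IkB-epsilon, which binds Rela and Rel dimers and returns later after stimulation. It had 15.6, 15.8 and 14.6 CPM in ETV4 KO and 24.2, 23.2 and 25.3 CPM in controls. Here all ETV4 KO values lay below all control values, and the log2 fold change was -0.66 (SE 0.064, edgeR adjusted p = 2.33e-10).

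Nfkbiz encodes IkB-zeta, a nuclear member of the family that works with p50 on a subset of inflammatory promoters and can activate them. It had 53.5, 50.2 and 51.6 CPM in ETV4 KO and 67.6, 64.6 and 66.6 CPM in controls. The groups did not overlap, and the log2 fold change was -0.35 (SE 0.043, edgeR adjusted p = 1.88e-08).

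**Figure D1:**
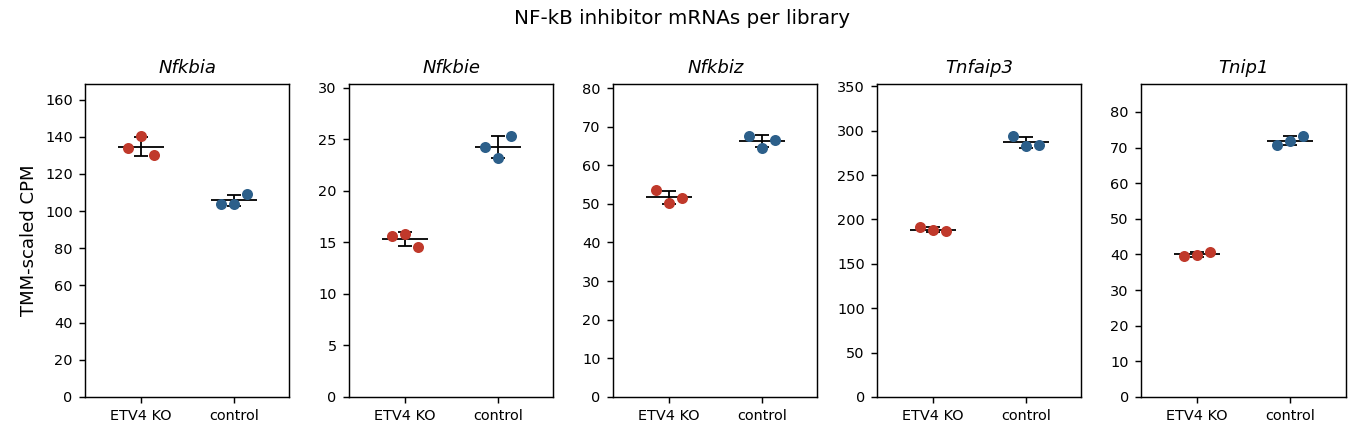
TMM-scaled CPM of the inhibitor genes in each library (points), with the mean and SD of each group (bars; n = 3 ETV4 KO on the left, n = 3 control on the right; every axis starts at 0). Nfkbia is higher in ETV4 KO, and Nfkbie, Nfkbiz, Tnfaip3 and Tnip1 are lower, with no overlap between the groups in any panel.

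Promoter sequences were searched for matches to the kB consensus. RefSeq windows (GRCm38.p6, the assembly also called mm10; the reference genome, not the 4T1 genome) were matched for 7 of the 10 genes, Nfkb2, Rel, Rela, Nfkbia, Nfkbie, Tnfaip3 and Tnip1. The 250 bases before the start are printed for Nfkbia, which was higher in ETV4 KO, and for Nfkbie and Tnip1, the 2 genes with the largest falls. They lie at chr12:55492648-55492897 on the minus strand, chr17:45555450-45555699 on the plus strand and chr11:54962941-54963190 on the minus strand. Each is written 5′ to 3′ along its gene, and capitals mark matches to the 10-base kB consensus on either strand.
Nfkbia: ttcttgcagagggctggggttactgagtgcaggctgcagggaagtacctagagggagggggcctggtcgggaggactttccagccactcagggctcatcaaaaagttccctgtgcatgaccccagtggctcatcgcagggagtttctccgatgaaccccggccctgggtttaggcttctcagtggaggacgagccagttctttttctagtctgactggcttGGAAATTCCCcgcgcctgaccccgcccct
Nfkbie: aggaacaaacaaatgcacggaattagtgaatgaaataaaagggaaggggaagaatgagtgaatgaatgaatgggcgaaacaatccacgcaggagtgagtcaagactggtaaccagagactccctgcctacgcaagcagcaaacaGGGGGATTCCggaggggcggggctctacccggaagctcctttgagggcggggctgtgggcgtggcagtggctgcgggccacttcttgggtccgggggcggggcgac
Tnip1: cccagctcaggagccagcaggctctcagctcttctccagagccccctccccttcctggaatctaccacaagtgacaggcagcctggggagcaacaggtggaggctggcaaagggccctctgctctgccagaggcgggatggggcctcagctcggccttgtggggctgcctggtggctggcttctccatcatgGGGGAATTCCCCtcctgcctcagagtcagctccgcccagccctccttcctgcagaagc
The Nfkbia window held 1 match, GGAAATTCCC, whose last base lay at position -20 relative to the start. The Nfkbie window held 1 match, GGGGGATTCC, and the Tnip1 window held 1 stretch of overlapping matches on both strands around GGGAATTCCC. Of the 7 genes 6 had a match before at least 1 annotated start, among them Rel with GGGAAATCCC, Nfkb2 with GGGAATTCCC and GGGGCTTTCC, and Tnfaip3 with GGAAATCCCC and GGGACACCCC. The Tnfaip3, Nfkb2 and Rela windows, and the last base of the Rel window, overlap transcripts of the GENCODE M21 annotation that start further upstream. Rela had no match in its window. Over all RefSeq windows of this length 3.90% held a match, counted per start site, and 4.46% of genes had at least 1. Matches thus stood before Nfkbia, which was higher in ETV4 KO, and before the 5 lower genes with a window. None stood before Rela, the other gene called higher, whose small change is described below. Nfkbiz, which was lower, had no window. Several of the brakes are themselves NF-kB target genes, so these matches are no independent result of the comparison.

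The same windows were searched on both strands for ETS-type letters. AGGAAG, the PEA3 motif, was found before at least 1 start of Rel, Tnfaip3 and Tnip1, 3 of the 7 genes, against 32.3% of all genes. CCGGAA, an ETS core, was found only before Nfkbie, 2 times, against 13.6% of all genes, and 1 of these matches overlapped the kB match. A match is a description of the letters in this window and shows no binding.

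Among the subunits, Rel was the one with a change of more than 0.2 on the log2 scale before the neighbouring genes were taken into account; with their median taken out it had -0.042 (edgeR adjusted p = 0.567), against -0.31 for Nfkb2 and -0.22 for Relb. Rel encodes c-Rel, the subunit best known from lymphocytes, and it was the lowest of the 10 genes per transcript length. It had 19.2, 17.8 and 17.4 CPM in ETV4 KO and 24.9, 24.8 and 25.3 CPM in controls. The groups did not overlap, and the log2 fold change was -0.46 (SE 0.061, edgeR adjusted p = 1.09e-07).

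Rela encodes p65, the main activating subunit of the canonical pathway. It had 163.0, 162.1 and 161.5 CPM in ETV4 KO and 157.6, 152.3 and 151.8 CPM in controls. The groups did not overlap, but the difference was small, 0.08 on the log2 scale (SE 0.034, edgeR adjusted p = 0.0435). This call was lost with upper-quartile factors (adjusted p = 0.297), with library size alone (0.515), with DESeq2 (0.0591) and with a filter of at least 1 CPM in 3 samples (0.0628), and also without ETV4 KO replicate 1 (0.0768), ETV4 KO replicate 3 (0.0770), control replicate 2 (0.128) or control replicate 3 (0.146).

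Nfkb1, which encodes p105 and its product p50, had 186.1, 193.5 and 184.7 CPM in ETV4 KO and 190.9, 189.7 and 185.7 CPM in controls. The groups overlapped, and their log2 difference, -0.0052 (SE 0.033, edgeR adjusted p = 0.894), was smaller than the spread between replicates; its sign turned without the low-count filter and without single replicates.

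The subunits of the alternative pathway were slightly lower. Nfkb2 had 270.3, 285.7 and 266.2 CPM in ETV4 KO and 306.5, 306.4 and 305.8 CPM in controls, and Relb had 38.6, 42.0 and 39.3 CPM in ETV4 KO and 44.1, 42.9 and 43.0 CPM in controls. Neither gene overlapped between groups. The log2 fold change of Nfkb2 was -0.16 (SE 0.033, edgeR adjusted p = 7.77e-05). That of Relb was -0.12 (SE 0.049, edgeR adjusted p = 0.0340), a call that was lost with DESeq2 (adjusted p = 0.121), without the low-count filter (0.0768) and without 5 of the 6 libraries in turn: ETV4 KO replicate 1 (0.125), ETV4 KO replicate 3 (0.109), control replicate 1 (0.0927), control replicate 2 (0.0518) and control replicate 3 (0.0577). Exons of Nfkb2 overlap those of Psd on the opposite strand. Psd had 803 to 990 counts per ETV4 KO library and 894 to 1184 per control library. Scaled to library size, Psd averaged 34.9 CPM in ETV4 KO and 42.1 CPM in controls, with every ETV4 KO value below every control value. Psd was thus called lower, as Nfkb2 was, at -0.27 on the log2 scale (edgeR adjusted p = 3.7e-05). The library kit keeps strand, but how the counting treated strand is not given in these sources. Reads from the overlapping exons could therefore be counted for either gene. Their part in the Nfkb2 difference was not tested.

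**Figure D2:**
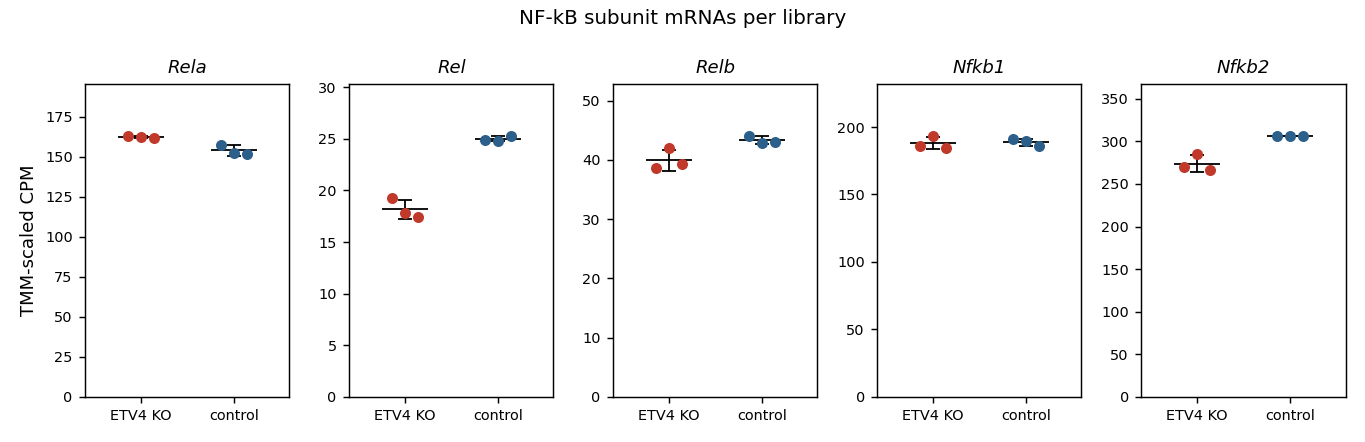
TMM-scaled CPM of the NF-kB subunit genes in each library (points), with the mean and SD of each group (bars; n = 3 ETV4 KO on the left, n = 3 control on the right; every axis starts at 0). Rel is visibly lower in ETV4 KO, whereas Rela, Relb, Nfkb1 and Nfkb2 differ by small amounts.

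Levels were compared between genes as RPKM, CPM per kilobase of the longest transcript in GENCODE M21. In ETV4 KO the order ran from Nfkbia (85.4 RPKM ± 3.39) through Nfkb2 (71.3 ± 2.67), Rela (59.7 ± 0.272), Nfkb1 (45.3 ± 1.14), Tnfaip3 (30.4 ± 0.382), Tnip1 (13.5 ± 0.199), Nfkbiz (12.6 ± 0.409), Relb (12.2 ± 0.541) and Nfkbie (5.10 ± 0.225) to Rel (2.43 ± 0.128), all in RPKM with SD and n = 3. Nfkbiz and Relb lay within each other's spread. In controls the order began with Nfkb2 (79.6 RPKM ± 0.0954), Nfkbia (67.0 ± 1.90), Rela (56.7 ± 1.18), Tnfaip3 (46.3 ± 0.999) and Nfkb1 (45.5 ± 0.661). It went on with Tnip1 (24.2 ± 0.417), Nfkbiz (16.1 ± 0.378), Relb (13.2 ± 0.200), Nfkbie (8.07 ± 0.352) and Rel (3.35 ± 0.0340), again with SD and n = 3. The control library values of Tnfaip3 and Nfkb1 overlapped. Nfkbia was thus the most abundant of the 10 mRNAs in every ETV4 KO library, and Nfkb2 in every control library. With the union of all annotated exons as the length, Nfkb1 came to 15.6 RPKM in ETV4 KO and 15.6 RPKM in controls, below Tnfaip3 in both groups, because its annotated exons add up to 12061 bases against 4149 in its longest transcript. On that scale the library values of Nfkb2 and Nfkbia in controls, with means of 66.8 and 65.6 RPKM, overlapped.

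The make-up of the subunit pool differed by small amounts between the groups. No share overlapped between them, and a two-sided exact permutation test gave p = 0.1 for each, the smallest that 3 against 3 can give. Of the summed subunit RPKM, Nfkb2 held 37.3% ± 0.551 in ETV4 KO and 40.1% ± 0.356 in controls, and Rela held 31.3% ± 0.697 in ETV4 KO and 28.6% ± 0.323 in controls (SD, n = 3 each). Nfkb1 held 23.7% ± 0.0732 in ETV4 KO and 22.9% ± 0.177 in controls, Relb 6.39% ± 0.163 in ETV4 KO and 6.67% ± 0.0470 in controls, and Rel 1.27% ± 0.0754 in ETV4 KO and 1.69% ± 0.0303 in controls. With union exon lengths the shares of Nfkb1 were 11.1% in ETV4 KO and 10.6% in controls.

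**Figure D3:**
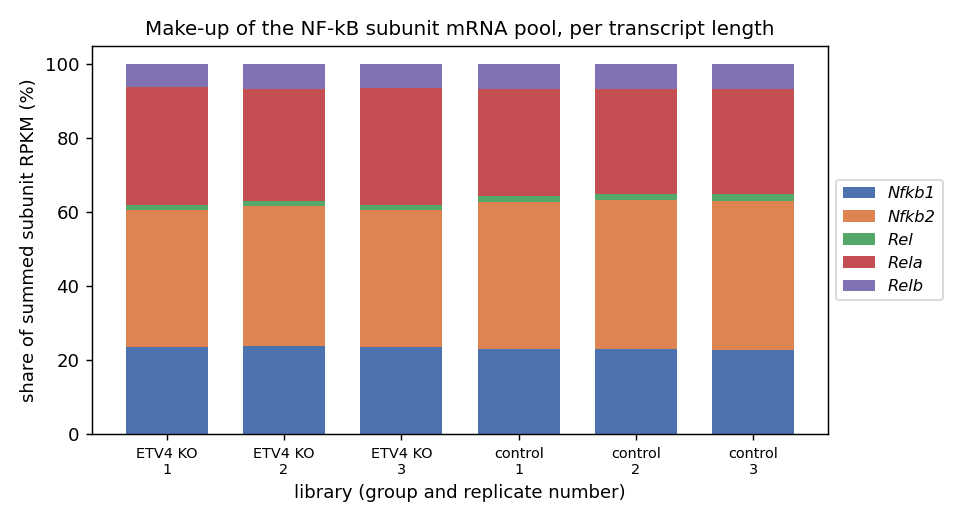
Share of each subunit in the summed subunit RPKM (stacked bars, %) for the 3 ETV4 KO libraries (left) and the 3 control libraries (right). Nfkb2 and Rela make up most of the pool in all 6 libraries, with a mean Rela share of 31.3% in ETV4 KO and 28.6% in controls.

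The balance between the summed Nfkbia and Nfkbie mRNAs and the subunit mRNAs differed between the groups, mostly through Nfkbia. The IkB-beta gene Nfkbib, at 10.4 RPKM in ETV4 KO and 9.62 RPKM in controls, was left out of this sum. Nfkbia and Nfkbie together came to 0.475, 0.482 and 0.465 of the summed subunit RPKM in the ETV4 KO libraries and to 0.369, 0.372 and 0.395 in the control libraries. The Nfkbia to Nfkbie ratio per length was 16.8 ± 0.349 in ETV4 KO and 8.30 ± 0.192 in controls (SD, n = 3 each), 2.02 times as high. Tnfaip3 relative to the summed subunits was 0.159 ± 0.0042 in ETV4 KO and 0.234 ± 0.0029 in controls. These ratios do not depend on the scaling of the libraries. None of the 3 overlapped between groups, and a two-sided exact permutation test gave p = 0.1 for each, the smallest that 3 against 3 can give.

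The chromosomal surroundings of several of these genes also differed between the groups. For each gene the median log2 fold change was computed over its expressed neighbours, the genes that share its 10 Mb bin. On chromosome 11, which holds Rel and Tnip1, the median over expressed genes was -0.38, and the bins of the pair had medians of -0.42 and -0.34. Rel, at -0.46, was near the median of its bin, and its call was lost with that median taken out, as given above. Nfkbiz, on chromosome 16, was likewise near its bin, with -0.35 against -0.29, and had -0.063 with the bin median taken out (edgeR adjusted p = 0.202). For Rela the bin median was 0.11, and with it taken out the sign turned, to -0.030 (edgeR adjusted p = 0.452).

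The changes of Tnip1, Tnfaip3, Nfkbie and Nfkbia were larger than those of their surroundings. With the bin medians taken out Tnip1 had -0.51, Tnfaip3 on chromosome 10 had -0.36 and Nfkbia on chromosome 12 had 0.23, with edgeR adjusted p-values of 1.45e-11, 6.00e-11 and 4.95e-06. Nfkbie lies on chromosome 17 in a bin with a median of 0.34, so its value became -1.002 (edgeR adjusted p = 2.78e-14), the largest of the 10 genes on this scale. Nfkb2 and Relb moved to -0.31 and -0.22, and Nfkb1 was called lower, at -0.11 (edgeR adjusted p = 0.00576). This step treats each bin median as a fixed number, so its p-values carry nothing of how widely neighbouring genes vary.

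**Figure D4:**
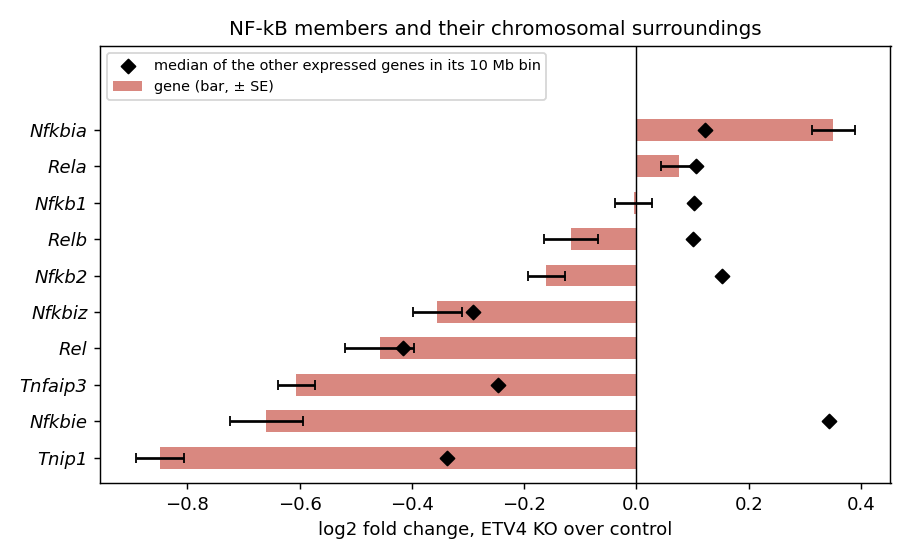
Log2 fold change (ETV4 KO over control) of each gene (bar, with its SE) and the median of its expressed neighbours within 1 bin of 10 Mb (diamond). Rel and Nfkbiz lie near their bin medians, whereas Tnip1, Tnfaip3 and Nfkbie lie below theirs and Nfkbia above.

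Genes above NF-kB in the pathway went both ways, as did all tested genes, of which 35.0% were called higher and 36.0% lower; the counts below are read beside these shares, and no list was tested against them. Of 16 tested genes for the IKK complex and upstream kinases 5 were called higher and 7 lower, with a median log2 fold change of -0.05. The IKK subunits split: Ikbkg (NEMO) and Chuk (IKK-alpha) rose by 0.32 and 0.28 (0.19 and 0.16 with their bin medians taken out), and Ikbkb (IKK-beta) had -0.18. Ikbkb is outside the rule for named genes and was chosen after its value was seen. Ripk1, a kinase at the TNF receptor, rose by 0.44 and Map3k8, a kinase held by p105, by 0.81. Map3k14, which encodes the kinase NIK of the alternative pathway, averaged 27.9 CPM ± 1.32 in ETV4 KO and 48.8 CPM ± 1.84 in controls (SD, n = 3 each). Its log2 fold change was -0.81 (SE 0.052, edgeR adjusted p = 1.87e-14), and -0.34 with its bin median on chromosome 11 taken out. The kinases Irak2 and Ikbke had -0.62 and -0.44. Map3k3, also on chromosome 11, had -0.38 and turned to 0.09 with the bin median taken out.

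Among 18 tested receptor adaptors and ubiquitin ligases 2 were called higher and 7 lower, with a median of -0.07; with the bin medians taken out 0 were called higher and 12 lower, against 3684 higher and 4136 lower over all genes. Traf3, an adaptor that promotes the destruction of NIK, and Traf6, an adaptor of IL-1 and Toll-like receptors, rose by 0.32 and 0.22, calls that were lost once bin medians were removed (0.034 and 0.081). Traf1, an adaptor and NF-kB target, had -0.54, Tradd, the TNF receptor adaptor, -0.42, Birc3 (cIAP2) -0.37, and Rbck1, a subunit of the linear ubiquitin ligase, -0.29 (-0.47 with its bin median taken out). Of 10 tested deubiquitinases and A20 partners 2 were called higher and 5 lower, with a median of -0.08. Tax1bp1 and Itch, which work in the A20 complex, had -0.26 and 0.31; once bin medians were removed Tax1bp1 had -0.042 and was not called (edgeR adjusted p = 0.301), and Itch had 0.14. Rnf11, Cyld and Otud7b had -0.10, -0.13 and -0.13, and the sign of each turned once bin medians were removed; Azi2, an adaptor of TBK1, had 0.27 and was not called then (0.10). Of the 4 tested genes in the list of other IkB genes 1 was called higher, Nkrf, an NF-kB repressing factor, at 0.25; without ETV4 KO replicate 1 it had 0.17 and was not called. The IkB-beta gene Nfkbib had 0.11 (edgeR adjusted p = 0.132).

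Of 16 tested receptors that signal to NF-kB 2 were called higher and 8 lower (71.1% of all tested genes were called), with a median of -0.16. The 2 chains of the IL-1 receptor were both lower. Il1rap had 15.2 CPM ± 0.625 in ETV4 KO and 29.7 CPM ± 2.35 in controls, and Il1r1 had 9.11 CPM ± 0.519 in ETV4 KO and 16.2 CPM ± 1.26 in controls (SD, n = 3 each), with log2 fold changes of -0.96 (SE 0.066, edgeR adjusted p = 1.11e-13) and -0.83 (SE 0.081, edgeR adjusted p = 2.58e-10). Tlr3, a sensor of double-stranded RNA, had -0.77, and Il17ra had -0.24, a call lost with the bin median taken out (-0.062). Tnfrsf1a, the main TNF receptor, rose by 0.25 (0.43 with its bin median taken out). Tnfrsf12a, the TWEAK receptor, averaged 796.9 CPM in ETV4 KO and 710.8 CPM in controls, a log2 fold change of 0.16 that turned to -0.20 with its bin median taken out.

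The ligands of these receptors were at low counts. The table held 13 ligand genes, of which 4 were tested, 2 called higher and 2 lower, and Il17a, Tnfsf11, Tnfsf14 and Cd40lg had 0 counts in all libraries. Il1a (IL-1 alpha) had 4.92 CPM ± 0.319 in ETV4 KO and 3.74 CPM ± 0.344 in controls (SD, n = 3 each); the log2 difference, 0.40 (SE 0.13, edgeR adjusted p = 0.0073), was not called with the bin median taken out (0.22). Il1b (IL-1 beta), the other IL-1 gene tested, was chosen after its values were seen. It had 8, 5 and 5 counts in the ETV4 KO libraries and 14, 13 and 26 in the control libraries. Its log2 fold change was -1.62 (SE 0.42, edgeR adjusted p = 0.000987). Tnf had 2, 3 and 2 counts in the ETV4 KO libraries and 4, 3 and 6 in the control libraries and was not tested. Il33, chosen after its values were seen, had 0 counts in each ETV4 KO library and 21, 20 and 28 in the control libraries, at least 24.3-fold lower when 3 counts over the ETV4 KO group are taken as the floor.

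NF-kB target genes split almost evenly, as did all tested genes. Of 34 tested targets 14 were called higher and 15 lower, against 4232 higher and 4350 lower of the 12076 genes, with a median log2 fold change of -0.012 over the targets. Among called genes with a mean of at least 100 counts in the higher group, the 4 with the largest rises were Mmp3 (2.36), Mmp13 (2.02), the neutrophil chemokine Cxcl5 (1.44) and Ptgs2 (1.31), and the 4 with the largest falls were Mmp9 (-1.27), the cytokine subunit Il23a (-1.01), the growth factor Pdgfb (-0.78) and the adhesion molecule Vcam1 (-0.65), with SEs between 0.031 and 0.10. Each of these 8 kept its direction and its call with the bin medians taken out. In a short list of genes known to need IkB-zeta, 6 of 12 were tested, 2 called higher and 3 lower: Cxcl5 rose by 1.44, whereas Zc3h12a, an RNase that cuts inflammatory mRNAs, had -0.46 and Csf3 (G-CSF) had -0.37. With the bin medians taken out Zc3h12a had -0.23 and Csf3, on chromosome 11, -0.0050, which was not called. Lcn2, Saa3 and Il6, also in this list, were below the filter on low counts in both groups. The lists share members, such as Traf1, Birc3 and Cxcl5.

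**Figure D5:**
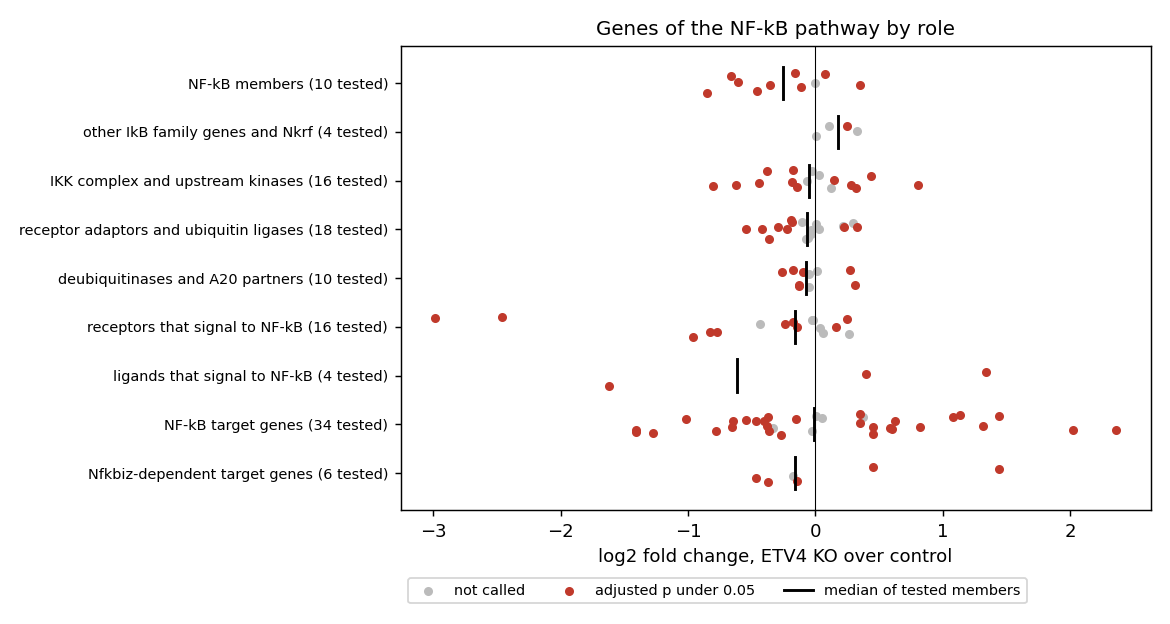
Log2 fold change (ETV4 KO over control) of each tested gene in 9 lists of the NF-kB pathway (points; red, adjusted p under 0.05; grey, not called), with the median of each list (black line). Points lie on both sides of 0 in the lists of kinases, adaptors, deubiquitinases, receptors and target genes; Il33, with 0 counts in ETV4 KO, is left off the axis but counted in the median of its list.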

How the data were processed

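Stranded poly(A) RNA libraries of 3 ETV4 KO and 3 control samples were compared; groups come from the sample titles and columns from the library names. The authors deposited raw read counts per gene symbol, not normalized; that they are counts was read from the values. The submitters' processing notes name STAR 2.7.9a, featureCounts and 2 builds, hg38 and mm10, without their roles; annotation, strand and multi-mapping rules are not given in these sources, which leaves overlapping genes uncertain.

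Counts were analysed with edgeR 4.0.16: filterByExpr (minimum count 10, minimum total 15), TMM scaling, glmQLFit and glmQLFTest on the group alone, and Benjamini-Hochberg adjustment over 12076 genes. Log2 fold changes are ETV4 KO over control; each SE is the size of the change divided by the square root of F. Positions and lengths are from GENCODE M21; 30416 of 31017 symbols had 1 position. Bins used genes with a log2 CPM above 3, at least 10 per bin, or else the chromosome. RPKM used TMM-scaled CPM; the choice of length was made after seeing the data. Promoters are RefSeq windows.

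The members and lists were chosen with earlier results of these data known. All 10 members are named; from each other list, up to 4 called genes per direction with the largest change, groups that do not overlap and a mean of at least 100 counts in the higher group. The steps were tested on simulated counts with far fewer changed genes than were called here and without chromosome-wide shifts. That run therefore does not show how scaling and false calls behave under changes as wide as these. Alternatives were RLE, upper-quartile and no scaling factors, DESeq2 1.42.0, limma-voom (limma 3.58.1), other count filters, a replicate block, each sample left out, an adjusted p under 0.01, glmTreat against 1.5-fold and the bin medians.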

Additional observations from a re-analysis of the deposited data

How the results depend on the processing

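Of the 10 genes, 9 were called in the main test. The count was 7 to 9 when each sample was left out in turn, 8 with upper-quartile factors, library size alone, no low-count filter or a CPM filter, and 7 with DESeq2, the bin medians taken out or an adjusted p under 0.01; against a 1.5-fold change it was 1, and 1684 genes in all passed that test. Over all genes 8582 were called, 8152 to 8519 with a sample left out. The sign of Nfkb1 turned without the low-count filter (0.0037) and ran from -0.024 to 0.010 with a sample left out. With the bin medians taken out the sign turned for Rela (-0.030), Map3k3 (0.089), Otud7b (0.089), Cyld (0.042), Rnf11 (0.014) and Tnfrsf12a (-0.20). The cause of these turns was not tested beyond the construction of the step. Nfkb2, Nfkbia, Nfkbie, Tnfaip3 and Tnip1 kept their direction and call under every alternative except the 1.5-fold test, which only Tnip1 passed. The 1.5-fold test was not combined with the bin medians. Replicate numbers are shared by the groups. Same-numbered samples deviated together weakly (r = 0.071, 0.071 and 0.019 across genes), yet 5 of 6 samples correlated best with their own number. The labels name no batch, so the main test did not treat them as pairs. Whether the numbers mark shared batches was not tested. With the replicate block 9 of the 10 genes and 8882 genes in all were called. The effect of depth on the 10 genes was not tested. The ligand list fell from 4 called genes to 1 under the CPM filter, the list of genes that need IkB-zeta from 5 to 3 with DESeq2, and the list of other IkB genes from 1 to 0 with the bin medians taken out or without ETV4 KO replicate 1. Against a 1.5-fold change the counts were 1 instead of 12 for kinases, 0 instead of 9 for adaptors, 0 instead of 7 for deubiquitinases, 5 instead of 10 for receptors, 11 instead of 29 for target genes, 1 instead of 5 for genes that need IkB-zeta and 0 instead of 1 for other IkB genes.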

Other observations

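Among receptors of the TNF family, a pair at low counts differed by the largest amounts in the receptor list; both were chosen after their values were seen. Tnfrsf9 (4-1BB) had 0.291 CPM in ETV4 KO and 1.61 CPM in controls, a log2 fold change of -2.46 (SE 0.32), and Tnfrsf19 (TROY) had 0.0897 CPM in ETV4 KO and 0.744 CPM in controls, a log2 fold change of -2.99 (SE 0.48). Among NF-kB target genes the survival gene Bcl2l1 (Bcl-xL) had 128.3 CPM in ETV4 KO and 85.6 CPM in controls, whereas Cflar (c-FLIP), also a survival gene, had 58.4 CPM in ETV4 KO and 76.0 CPM in controls. Their log2 fold changes were 0.58 (SE 0.037) and -0.38 (SE 0.043), again chosen after their values were seen.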
